A study of Mus musculus with 4 samples.

Results

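The lysosome and autophagy genes described here are 46 genes chosen by name: 12 proteases (the cathepsins and legumain), the cathepsin inhibitor cystatin C, 9 other acid hydrolases and activators, 7 proteins of membranes and sterol transport, 2 transcription factors, 6 genes of autophagosome initiation, 3 of conjugation, and 6 of the ATG8 family and its receptor p62. All 46 were among the 17457 genes listed, and in 45 of them, and in 11056 genes in all, the FPKM (fragments per kilobase of transcript, scaled to the fragments of the library, and so a level per length) was 1 or more in at least 2 samples. Expression was measured by RNA-sequencing of mesenchymal stem cells (MSCs) sorted from mouse long bones, in 2 samples of leukemia-associated MSCs (L-MSCs) and 2 samples of control MSCs. The L-MSCs came from female C57BL/6J mice that had received 1000 PER-M60 cells, a pre-B acute lymphoblastic leukemia line carrying a BCR-ABL1 retrovirus, at 7 to 9 weeks of age, and that were killed at the onset of symptoms with a high leukemia burden. Control MSCs came from mice of the same sex and strain that had received PBS and were killed at the equivalent time. Each sample pooled cells from 4 to 7 mice, so that the spread within a group is that between pools, and the disease model is a single transplanted line. After the marrow had been flushed out and the bones digested, the cells taken were PDGFRα+ and Sca-1+ and lacked CD31, TER119 and CD45.

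Lysosomes are acidic compartments in which hydrolases such as the cathepsins break down proteins, lipids, glycans and glycogen, and autophagy delivers cytoplasm to them in double-membraned vesicles. Kinase and lipid-kinase complexes start such a vesicle, a conjugation machinery attaches ATG8 proteins (the LC3 and GABARAP families) to its membrane, and receptors such as p62 bind cargo to ATG8. TFEB, TFE3 and MITF, related helix-loop-helix factors held in the cytoplasm when the kinase complex mTORC1 is active, bind CACGTG-type sites in many of these genes, and in skeletal cells lysosomal proteases such as cathepsin K also digest bone collagen.

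The 4 libraries were alike in the number of genes detected, with an FPKM of 1 or more for 10792 and 10976 genes in the L-MSC libraries and 10611 and 10560 in the control MSC libraries. Throughout, paired values are those of replicates 1 and 2. The antigens of the sort were present in every library, with *Pdgfra* at an FPKM of 87.1 and 93.0 in L-MSCs, against 66.8 and 72.7 in control MSCs. Macrophages and osteoclasts are rich in lysosomes. Of 14 macrophage markers, 3 could be tested and 0 were called by limma, 10 were below an FPKM of 1 in every library, and their summed FPKM was 33.8 and 21.4 in L-MSCs, against 32.2 and 33.1 in control MSCs. *Fcgr1* was at 0 in every library, and *Ptprc* and *Adgre1* did not exceed 0.02 in any of them. With all 4 libraries kept, 1 macrophage marker was called lower with a minimum FPKM of 5. With the replicate block, 1 was called higher and 1 lower. The calls in this list also depended on which libraries were kept. The median log2 fold change of the 3 tested was -0.40, and it was -0.70 to -0.09 with any 1 library left out. Of 9 osteoclast markers listed, *Acp5* and *Itgb3* fell, *Tnfrsf11a* was at 0 in every library, and the summed FPKM was 125.6 and 109.7 in L-MSCs, against 218 and 159.7 in control MSCs. In the same list *Mmp9* had an FPKM of 6.09 and 2.72 in L-MSCs and 1 and 0 in control MSCs (log2 fold change 1.80, adjusted p = 0.0505 from limma), and *Atp6v0d2* had 23.2 and 17.8 in L-MSCs and 14.5 and 8.98 in control MSCs (0.68, adjusted p = 0.224). With all 4 libraries kept, 1 marker of this list was called higher and 2 lower with the robust fit. The replicate block gave the same counts. The calls in this list, too, changed with the libraries kept. The median log2 fold change of the 5 osteoclast markers tested was -0.07, and it was -0.30 to 0.15 with any 1 library left out. Of 9 markers of the B lineage, to which the leukemia belongs, 2 could be tested and *Ebf1* rose, with an FPKM of 56.4 and 57.6 in L-MSCs, against 30.2 and 25.5 in control MSCs. The summed FPKM of 8 erythroid markers was 10.1 and 6.26 in L-MSCs and 239 and 150.01 in control MSCs, and all 4 that could be tested, hemoglobin genes, fell. Of 4 adipocyte markers listed, 2 could be tested. *Fabp4* rose, with an FPKM of 19.0 and 8.39 in L-MSCs, against 3.10 and 0.97 in control MSCs (log2 fold change 2.18, adjusted p = 0.0246 from limma). *Adipoq* did not pass (log2 fold change 0.24, adjusted p = 0.842 from limma). *Plin1* and *Cidec* were at 0 in the L-MSC libraries and did not exceed an FPKM of 0.59 in the control MSC libraries. Among the 11 MSC markers, *Cxcl12* and *Lepr* rose and *Col1a1*, *Col1a2* and *Thy1* fell. The part of these shifts in the values below was not tested.

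Of the lysosome and autophagy genes, 3 of the 45 tested differed between the groups at an adjusted p of at most 0.05. *Gpnmb* and *Gabarapl1* rose in L-MSCs and *Tfeb* fell, and each changed by at least 1 on the log2 scale. Differences were tested with limma on log2(FPKM + 1) after scaling the libraries, with Benjamini-Hochberg adjustment over all 11056 genes. By that rule 2 of the 45 lysosome and autophagy genes (4.44%) rose, against 2.58% of all genes tested, and 1 of the 45 (2.22%) fell, against 3.23% of all genes, or 5.81% in either direction. With a change of at least 1 on the log2 scale required as well, the same 2 and 1 remained, against 2.43% higher and 2.64% lower over all genes (5.07% in either direction). By the adjusted p alone, 285 of all genes were higher and 357 lower in L-MSCs, and the balance depended on the scaling, with 314 higher and 218 lower without scaling and 251 higher and 196 lower with TPM. In pooled bulk samples, a lower share of cells expressing a gene and less RNA per cell cannot be told apart.

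The remaining 42 genes did not pass, and most of their differences were small. The log2 fold change of L-MSCs over control MSCs (log2 change below, given with its standard error, SE, for the genes that matter most) had a median of 0.23 over the 45 genes and of -0.01 over all genes tested, and 29 of the 45 values were above 0 and 16 below. That median was 0.07 without control MSC replicate 1 and 0.08 without L-MSC replicate 1. In 29 of the 45 genes the change was under 0.5 in size. After scaling, L-MSC and control libraries were fully separated in 25 of the 45 genes (55.6%), with 17 higher and 8 lower in L-MSCs, and over all genes this held for 52.0% (24.8% higher and 27.2% lower). On FPKM as deposited the balance was different, with 21 higher and 6 lower of the 45 genes, and 3410 higher and 2394 lower of all genes. At an unadjusted p of at most 0.05 there were 13 of the 45 genes and 2342 of the 11056 genes tested. The counts at that level given below for single roles and lists are to be read beside that share of all genes. With 2 samples in each group, the smallest change called over all genes was 0.78 on the log2 scale. L-MSC replicate 1 was higher than L-MSC replicate 2 by a median of 0.22 (log2) over the 45 genes and by 0.01 over all genes tested.

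**Figure D1:**
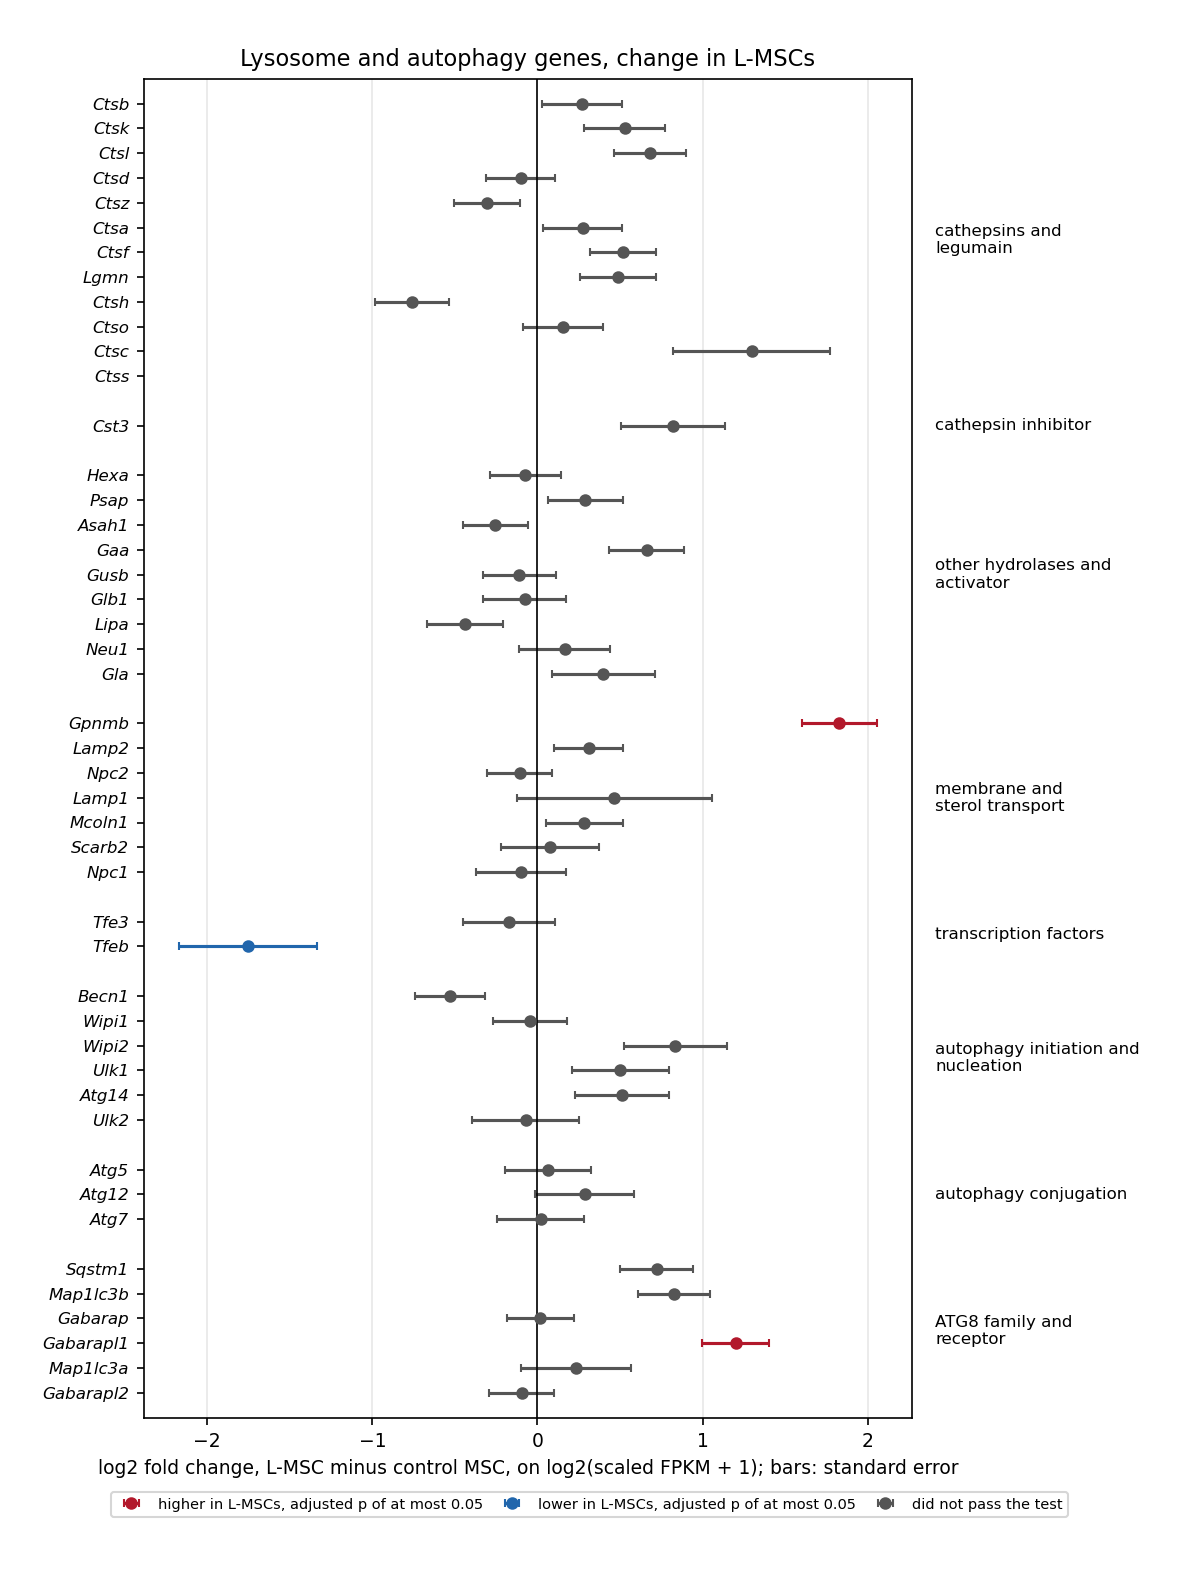
Log2 change of L-MSCs over control MSCs for each lysosome and autophagy gene, on log2(scaled FPKM + 1), with its standard error from limma (horizontal axis) and genes grouped by role (vertical axis). *Gpnmb* (1.83) and *Gabarapl1* (1.20) lie to the right in red and *Tfeb* (-1.75) to the left in blue, and the grey genes did not pass the test.

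Both transcription factors of the list were expressed at modest levels, and the factor with the lower level fell. *Tfeb* (gene ID 21425, chr17:47737037-47792416, GRCm38.p6), the best known regulator of lysosomal genes, had an FPKM of 0.58 and 2.80 in L-MSCs, against 7.69 and 6.11 in control MSCs. Both L-MSC libraries were below both control libraries, and L-MSC replicate 1 was the lowest. The log2 change was -1.75 (SE 0.42, adjusted p = 0.0400 from limma). The call did not hold without L-MSC replicate 1 (-1.14, adjusted p = 0.127), control MSC replicate 1 (-1.60, adjusted p = 0.122) or control MSC replicate 2 (-1.91, adjusted p = 0.0568), and it held without L-MSC replicate 2 (-2.36, adjusted p = 0.00113). It was also lost without scaling (adjusted p = 0.0569) and with TPM (adjusted p = 0.0732). *Tfe3*, its relative, had an FPKM of 25.4 and 22.1 in L-MSCs and 19.3 and 32.3 in control MSCs. These groups overlapped, with a log2 change of -0.17 (SE 0.28, adjusted p = 0.774 from limma), which was 0.17 without control MSC replicate 2.

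*Mitf* (gene ID 17342, chr6:97807002-98021360), the third factor of this family and not among the 46 genes, rose. It had an FPKM of 23.0 and 14.6 in L-MSCs, against 2.06 and 2.64 in control MSCs, a log2 change of 2.45 (SE 0.32, adjusted p = 0.00351 from limma). Both L-MSC libraries lay above both control libraries, and the change was 2.12 to 2.77 with any 1 library left out. The 3 related factors thus gave 1 gene that rose, 1 that fell and 1 that did not pass the test, and the difference between their changes was not itself tested.

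**Figure D2:**
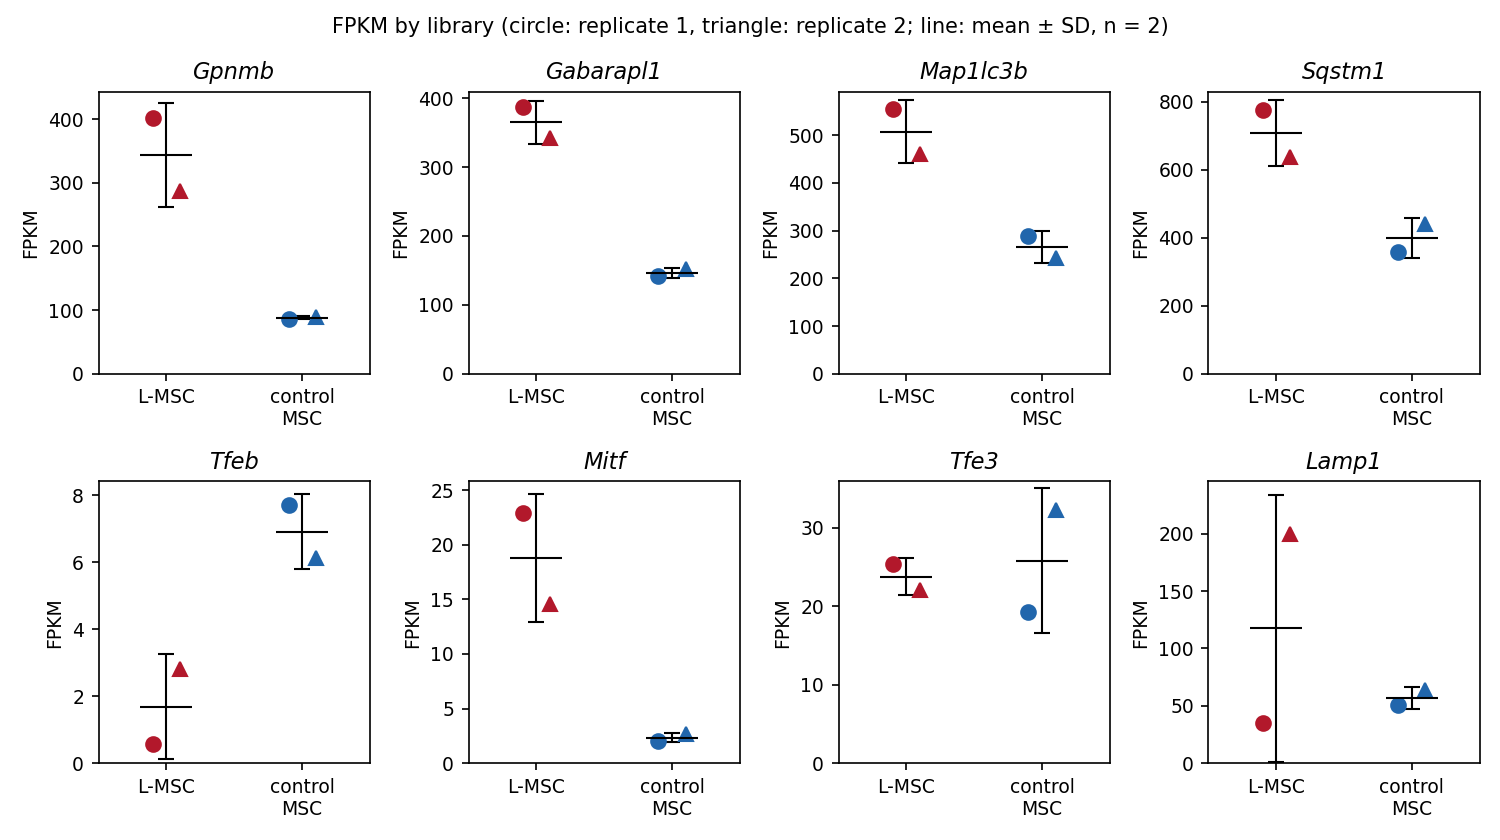
FPKM (vertical axis, linear, from 0) of 8 genes in the 2 L-MSC and the 2 control MSC libraries, where circles are replicate 1, triangles are replicate 2 and the lines are the mean and SD of 2 samples. The L-MSC points lie above the control points for *Gpnmb*, *Gabarapl1*, *Map1lc3b*, *Sqstm1* and *Mitf* and below them for *Tfeb*, and the *Lamp1* points of the L-MSCs lie on both sides of the controls.

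Among the 7 genes of membranes and sterol transport, *Gpnmb* rose and the other 6 did not pass the test, with a median log2 change of 0.28 over the 7. *Gpnmb* (gene ID 93695, chr6:49036518-49058182) encodes a transmembrane glycoprotein of lysosomes and melanosomes that is also found at the cell surface. Its FPKM was 402 and 286 in L-MSCs, against 86.8 and 89.6 in control MSCs. The control libraries were close to each other and far below both L-MSC libraries, and the scaled level was 3.64-fold higher in L-MSCs. The log2 change was 1.83 (SE 0.23, adjusted p = 0.00315 from limma), and it was 1.56 to 2.09 with any 1 library left out, each time past the threshold. *Gpnmb* is also known as a gene of macrophages and osteoclasts. Of the 3 macrophage markers tested, *Cd68* had an FPKM of 12.6 and 4.35 in L-MSCs and 2.53 and 2.79 in control MSCs (log2 change 1.14, adjusted p = 0.164 from limma). The other macrophage markers tested went the other way, *Cd14* with a log2 change of -0.40 (adjusted p = 0.471) and *Lyz2* with -1.11 (adjusted p = 0.0655). Of the osteoclast markers, *Acp5* and *Itgb3* fell, and the values of *Mmp9* and *Atp6v0d2* are given above. The part of such cells in the *Gpnmb* values was not tested.

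*Lamp2*, one of the abundant glycoproteins that line the lysosomal membrane, had an FPKM of 204 and 216 in L-MSCs and 174 and 142 in control MSCs (log2 change 0.31, SE 0.21, adjusted p = 0.436 from limma). *Npc2*, which carries cholesterol inside the lysosome, had an FPKM of 140.1 and 134 in L-MSCs and 139 and 135 in control MSCs. The 4 values of *Npc2* were nearly the same, with a log2 change of -0.11 (adjusted p = 0.807 from limma) that was 0.08 with quantile normalization. *Lamp1*, the other main membrane glycoprotein, is named because its replicates disagreed. It had an FPKM of 35.1 and 199.9 in L-MSCs and 50.3 and 63.5 in control MSCs, so that 1 L-MSC library was below both controls and the other above both. The log2 change of 0.47 carried the largest standard error of the 45 genes, 0.59 (adjusted p = 0.708 from limma), and it was 1.68 without L-MSC replicate 1 (adjusted p = 0.00305) and -0.75 without L-MSC replicate 2 (adjusted p = 0.144).

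None of the 11 cathepsin and legumain genes tested passed, although this role held some of the most abundant transcripts of the list. With limma, 0 of 11 were called, and 4 had an unadjusted p of at most 0.05, beside 2342 of the 11056 genes tested. The median log2 change of the 11 was 0.27, which was 0.05 without L-MSC replicate 1 and 0.54 without L-MSC replicate 2. *Ctsb*, a cysteine protease, had the highest level, with an FPKM of 1545 and 1141 in L-MSCs and 1056 and 997 in control MSCs (log2 change 0.27, SE 0.24, adjusted p = 0.582 from limma). *Ctsk*, the collagen-degrading protease best known from osteoclasts, had an FPKM of 1029 and 749 in L-MSCs and 632 and 509 in control MSCs (log2 change 0.53, adjusted p = 0.257). *Ctsl*, a related cysteine protease, had an FPKM of 935 and 769.96 in L-MSCs and 507 and 478 in control MSCs (log2 change 0.68, SE 0.22, adjusted p = 0.109 from limma). In *Ctsk* and *Ctsl* the L-MSC libraries lay above the control libraries, and in *Ctsb* they did so on FPKM but overlapped after scaling. None of the 3 passed, although *Ctsl* passed with quantile normalization (adjusted p = 0.0486).

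The less abundant cathepsins went both ways. *Ctsf* had an FPKM of 238 and 228 in L-MSCs and 157 and 146 in control MSCs (log2 change 0.52, adjusted p = 0.170). *Ctsh*, an aminopeptidase, had an FPKM of 44.7 and 62.7 in L-MSCs and 81.3 and 87.2 in control MSCs. Its L-MSC libraries were the lower, with a log2 change of -0.76 (SE 0.22, adjusted p = 0.0847 from limma) that passed without L-MSC replicate 2 (-0.98, adjusted p = 0.0442). *Ctsc*, a dipeptidyl peptidase that activates serine proteases of immune cells, had an FPKM of 12.9 and 6.03 in L-MSCs and 4.96 and 1.42 in control MSCs, the largest change of the list that was not called. Its log2 change was 1.30 (SE 0.48, adjusted p = 0.154 from limma), and it passed without control MSC replicate 1 (1.96, adjusted p = 0.0275) and without L-MSC replicate 2 (1.81, adjusted p = 0.0207). *Ctss*, the cathepsin of antigen-presenting cells, was under the minimum for the test, with an FPKM of 0.08 and 0.25 in L-MSCs and 0.23 and 1.12 in control MSCs.

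*Cst3*, which encodes cystatin C, the secreted inhibitor of cysteine cathepsins, had by far the highest level of the list and ranked 2 among all genes tested. Its FPKM was 20895 and 17767 in L-MSCs and 11493 and 8966 in control MSCs, from 3.09% to 3.55% of the summed FPKM in L-MSCs and from 1.60% to 2.01% in control MSCs. The groups did not overlap, but the log2 change of 0.82 (SE 0.31) missed the threshold (adjusted p = 0.169 from limma), and it was 0.23 with quantile normalization (adjusted p = 0.664).

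**Figure D3:**
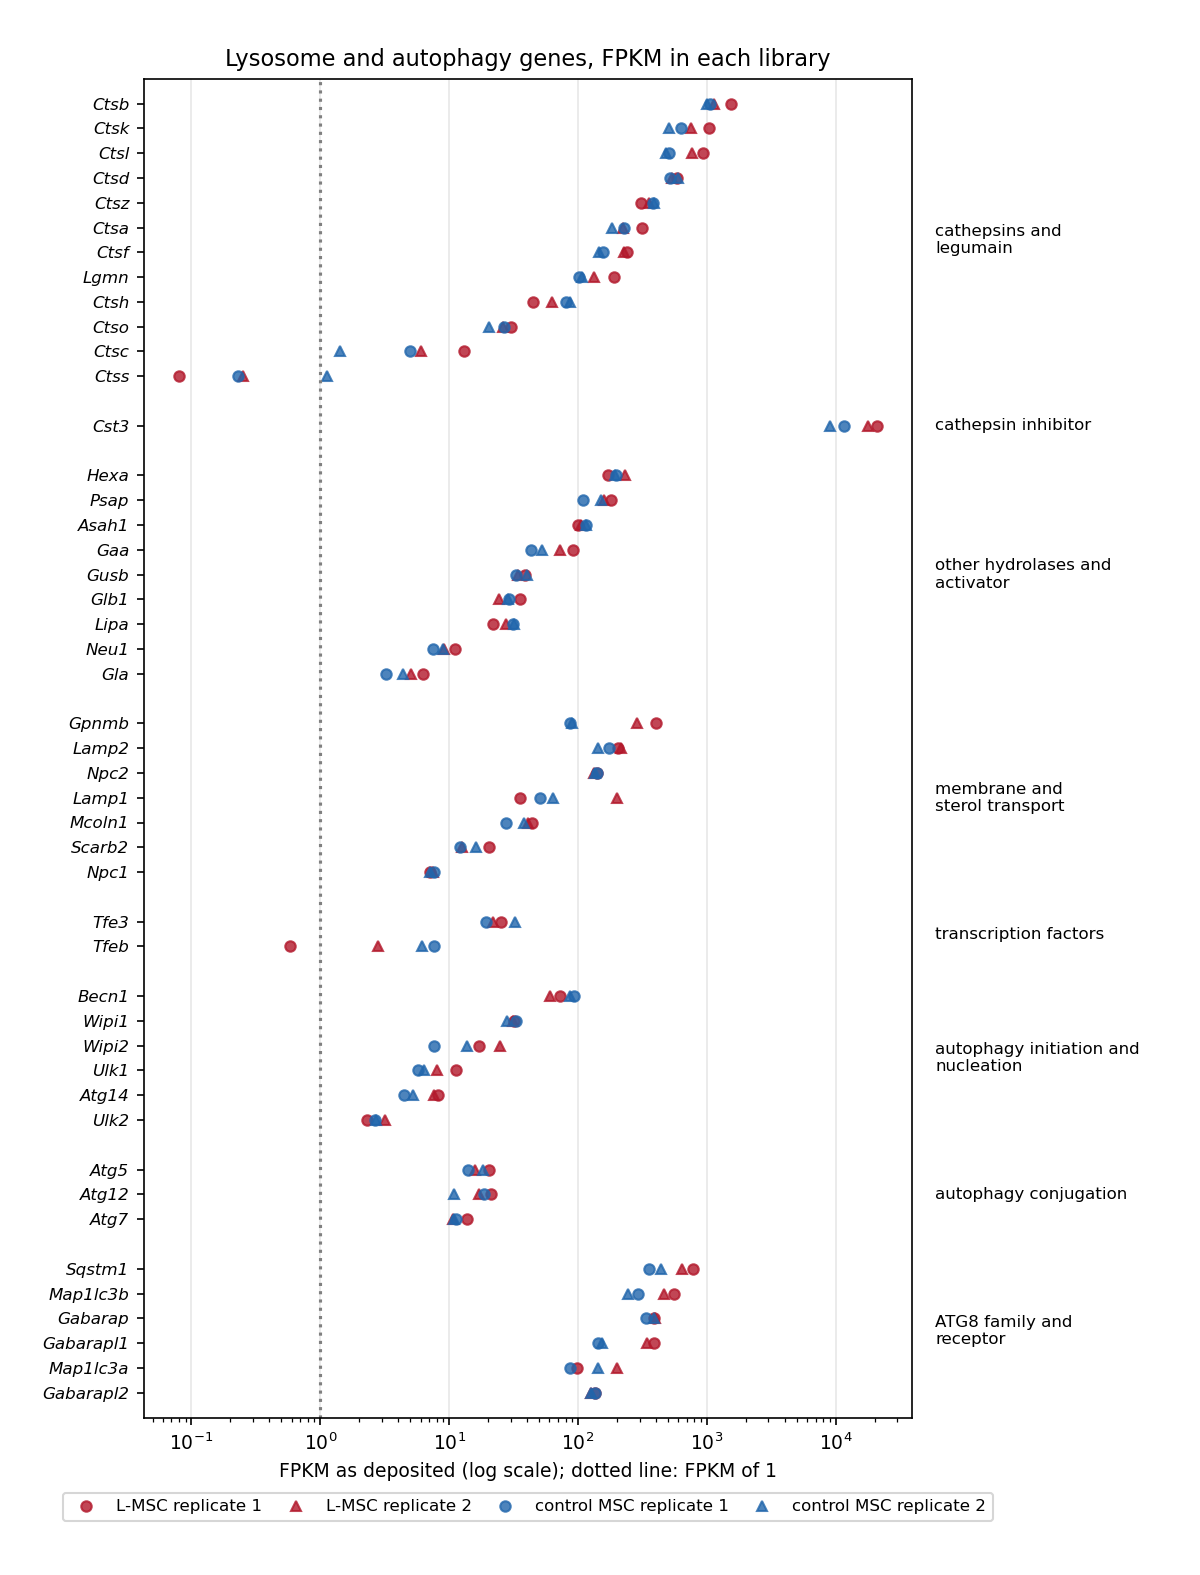
FPKM as deposited (horizontal axis, log scale, with a dotted line at 1) of the 46 lysosome and autophagy genes in each library, grouped by role (vertical axis), with L-MSCs in red and control MSCs in blue. The genes span from *Ctss* and *Tfeb* at the left to *Cst3* at 8966 to 20895 at the right, and for most genes the points of the groups lie close together.

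Of the 9 other hydrolases and activators, 0 were called by limma and 1 had an unadjusted p of at most 0.05, and the median log2 change was -0.07. *Hexa*, a subunit of the enzyme that trims gangliosides, had an FPKM of 171 and 232 in L-MSCs and 197 and 193 in control MSCs (log2 change -0.07, adjusted p = 0.885 from limma). Its sign depended on the setting, with 0.03 without scaling, 0.11 with quantile normalization and 0.12 without L-MSC replicate 1. *Psap*, the precursor of the saposins that help lipid hydrolases, had an FPKM of 179 and 159 in L-MSCs and 109 and 152 in control MSCs (log2 change 0.29, adjusted p = 0.513). *Asah1*, acid ceramidase, had an FPKM of 101 and 106 in L-MSCs and 115 and 115 in control MSCs (log2 change -0.26, adjusted p = 0.507). *Gaa*, which degrades glycogen, had the largest difference of this role, with an FPKM of 91.2 and 73.0 in L-MSCs and 43.0 and 52.8 in control MSCs (log2 change 0.66, SE 0.23, adjusted p = 0.129 from limma). In *Gaa* both L-MSC libraries exceeded both control libraries, and in *Psap* they did so on FPKM but overlapped after scaling.

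In the ATG8 family and its receptor, 1 of 6 genes rose and 0 fell, with a median log2 change of 0.48. *Gabarapl1* (gene ID 57436, chr6:129533192-129542331), a member of the GABARAP branch, had an FPKM of 387 and 342 in L-MSCs, against 142 and 152 in control MSCs. The libraries of each group were close together and the groups well apart, with a scaled level 2.31-fold higher in L-MSCs. The log2 change was 1.20 (SE 0.20, adjusted p = 0.00995 from limma), and it was 1.09 to 1.31 with any 1 library left out, each time past the threshold. It missed the threshold without the variance trend (adjusted p = 0.0572). *Gabarapl1* overlaps a long noncoding RNA gene, and the strand of the libraries is not given in the sources used here, so that their reads cannot be told apart here. The same holds for *Map1lc3b*, *Becn1*, *Ctsb*, *Asah1*, *Hexa* and *Atg12*, each of which overlaps another listed gene, and for *Lamp2*, *Atg7*, *Tfe3*, *Wipi1* and *Scpep1*, each of which overlaps a long noncoding RNA gene.

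*Map1lc3b*, the most used marker of autophagosomes as LC3B, had an FPKM of 554 and 461 in L-MSCs and 289.5 and 242 in control MSCs. The groups did not overlap and the log2 change was 0.83 (SE 0.22), which just missed the threshold (adjusted p = 0.0593 from limma). It passed under 6 of 14 alternatives, among them no scaling (adjusted p = 0.0401), quantile normalization (adjusted p = 0.0266) and leaving out L-MSC replicate 2 (0.98, adjusted p = 0.0422). *Sqstm1*, which encodes p62, had an FPKM of 777 and 639 in L-MSCs and 358 and 442 in control MSCs (log2 change 0.72, SE 0.22, adjusted p = 0.0979 from limma), and it passed with quantile normalization (adjusted p = 0.0402).

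The closest relatives of the gene that rose had near-equal levels in the groups. *Gabarap* had an FPKM of 389 and 396 in L-MSCs and 339 and 385 in control MSCs (log2 change 0.02, SE 0.20, adjusted p = 0.973 from limma), and its sign turned without control MSC replicate 1 (-0.06). *Gabarapl2*, named after its values were seen, had an FPKM of 136 and 127 in L-MSCs and 134 and 127 in control MSCs (log2 change -0.10, adjusted p = 0.831). *Map1lc3a*, also named after its values were seen, varied within both groups, with an FPKM of 98.9 and 200.5 in L-MSCs and 86.8 and 143 in control MSCs (log2 change 0.23, SE 0.33, adjusted p = 0.744 from limma). The difference between *Gabarapl1* and these paralogs was not itself tested.

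The 6 genes that start an autophagosome gave 0 calls with limma. At an unadjusted p of at most 0.05 there were 2, beside 2342 of the 11056 genes tested. The median log2 change of the 6 was 0.23. *Becn1*, a subunit of the lipid kinase complex, had an FPKM of 72.9 and 60.5 in L-MSCs and 92.7 and 87.1 in control MSCs (log2 change -0.53, adjusted p = 0.185 from limma). *Wipi2*, which reads the lipid made by that complex, had an FPKM of 17.1 and 24.7 in L-MSCs and 7.67 and 13.8 in control MSCs (log2 change 0.83, SE 0.31, adjusted p = 0.162). *Ulk1*, the kinase that starts autophagy, had an FPKM of 11.3 and 8.03 in L-MSCs and 5.68 and 6.33 in control MSCs (log2 change 0.50, adjusted p = 0.367). In these 3 the groups did not overlap, *Becn1* being the lower in L-MSCs and the other two the higher. *Atg14*, which directs the lipid kinase complex to autophagosomes, had an FPKM of 8.22 and 7.61 in L-MSCs and 4.48 and 5.28 in control MSCs (log2 change 0.51, adjusted p = 0.341 from limma). *Wipi1* overlapped, with 31.9 and 31.1 FPKM in L-MSCs and 32.7 and 28.1 FPKM in control MSCs, and its log2 change of -0.05 (adjusted p = 0.932 from limma) was above 0 without scaling (0.05), with TPM (0.01) and with quantile normalization (0.04).

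The conjugation genes overlapped between the groups in every case. *Atg5*, *Atg12* and *Atg7*, the last of which activates ATG8 and ATG12 for conjugation, had log2 changes of 0.06, 0.29 and 0.02 (adjusted p = 0.915, 0.643 and 0.979 from limma), and 0 of 3 had an unadjusted p of at most 0.05. Each took the other sign when 1 library was left out.

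Promoter sequences from RefSeq (GRCm38.p6, from 250 bases before to 50 after the start) were matched by gene ID for 39 of the 46 genes and searched for CACGTG, the palindromic core of the sites bound by TFEB, TFE3 and MITF. It was present in 13 of 39 (33.3%), against 1062 of 8900 tested genes with a promoter entry (11.9%) and 2187 of 27025 genes in the table (8.09%). TCACGTGA, 1 base longer on each side, was in 4 of 39 (10.3%) and in 2.38% of tested genes. The same letters with a further G before and C after were in 0 of 39 and in 0.831% of tested genes. These are descriptions of a list chosen for its function, and a match of letters is not a binding site. Of the 5 genes with more than 1 copy, the 4 whose copies lie within 60 bases are shown, because the spacing of the copies can be read from them, with CACGTG in capitals. The other is *Ctsd*, with copies 245 and 98 bases before the start. Shown are *Ctsa* (a carboxypeptidase, chr2:164833753-164833791, plus strand), *Gla* (α-galactosidase, chrX:134601186-134601240, minus strand), *Lamp1* (chr8:13159092-13159159, plus strand) and *Mcoln1* (a lysosomal calcium channel, chr8:3500440-3500487, plus strand).
Ctsa: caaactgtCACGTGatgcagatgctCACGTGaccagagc
Gla: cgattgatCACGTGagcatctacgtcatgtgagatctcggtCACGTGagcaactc
Lamp1: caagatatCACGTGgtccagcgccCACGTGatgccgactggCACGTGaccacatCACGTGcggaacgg
Mcoln1: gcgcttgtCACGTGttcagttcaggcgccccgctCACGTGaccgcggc

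The 4 copies in the *Lamp1* promoter began 61, 45, 28 and 15 bases before the start, and the pair in *Mcoln1* 71 and 45 bases before it. None of the 13 genes with the core was called by limma, beside 5.81% of all genes tested. With 13 genes, a count of 0 cannot be told apart from that share. The log2 changes of the genes with the core had a median of 0.40 and ran from -0.10 to 0.68. The 25 tested genes whose promoter lacked it had a median of 0.16, ran from -1.75 to 1.83 and included the 3 that were called. The 250 bases before the starts of both genes that rose are shown as they are, on the plus strand at chr6:49036268-49036517 for *Gpnmb* and chr6:129532942-129533191 for *Gabarapl1*, and no capitals appear because neither holds CACGTG.
Gpnmb: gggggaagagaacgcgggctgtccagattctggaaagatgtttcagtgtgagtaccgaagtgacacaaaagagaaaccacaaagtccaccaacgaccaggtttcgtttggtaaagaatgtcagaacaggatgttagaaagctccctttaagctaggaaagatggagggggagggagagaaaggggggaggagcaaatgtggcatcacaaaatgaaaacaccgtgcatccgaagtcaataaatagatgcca
Gabarapl1: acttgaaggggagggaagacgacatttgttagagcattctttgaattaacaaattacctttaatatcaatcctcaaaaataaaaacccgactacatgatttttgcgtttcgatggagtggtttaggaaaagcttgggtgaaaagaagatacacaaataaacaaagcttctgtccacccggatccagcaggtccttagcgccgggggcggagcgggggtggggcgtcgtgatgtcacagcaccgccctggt

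Further genes of the same pathways, 153 in 7 lists, gave 150 that could be tested, of which 5 rose (3.33%) and 1 fell (0.667%), beside 2.58% and 3.23% of all genes tested. Their median log2 change was 0.09. Of the 24 genes tested in the list for control of mTORC1 and TFEB, which also held the related factor *Mitf*, 3 rose and 1 fell. *Ddit4*, a stress-induced inhibitor of mTORC1 signaling, had an FPKM of 41.9 and 62.8 in L-MSCs, against 6.95 and 5.23 in control MSCs (log2 change 2.80, SE 0.27, adjusted p = 0.00121 from limma). *Sesn1*, a sestrin that also restrains mTORC1, had an FPKM of 58.5 and 65.8 in L-MSCs, against 16.9 and 18.1 in control MSCs (log2 change 1.67, adjusted p = 0.00351). In both genes each L-MSC library lay above each control library, and the third that rose was *Mitf*. *Lamtor2*, a subunit of the Ragulator scaffold that anchors mTORC1 at the lysosome, fell, with an FPKM of 161 and 177 in L-MSCs and 308 and 281 in control MSCs (log2 change -0.90, SE 0.20, adjusted p = 0.0316 from limma). That call was lost without L-MSC replicate 1 (adjusted p = 0.125), control MSC replicate 1 (adjusted p = 0.111) or control MSC replicate 2 (adjusted p = 0.0540), and without scaling, with TPM or with quantile normalization (adjusted p = 0.0522, 0.0521 and 0.0526).

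The other 2 genes that rose were 1 of 30 in the autophagy machinery and 1 of 34 hydrolases. *Trp53inp1*, a p53-induced protein that takes part in autophagy, had an FPKM of 27.5 and 26.0 in L-MSCs, against 5.68 and 2.71 in control MSCs (log2 change 2.38, SE 0.32, adjusted p = 0.00439 from limma). *Scpep1*, a serine carboxypeptidase, had an FPKM of 442 and 373 in L-MSCs, against 222 and 178.5 in control MSCs (log2 change 0.92, adjusted p = 0.0397), and it did not pass without L-MSC replicate 1 (adjusted p = 0.184) or control MSC replicate 2 (adjusted p = 0.158). Neither gene overlapped between the groups.

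The remaining lists gave no call. Of 17 subunits and partners of the V-ATPase, the proton pump that acidifies the lysosome, 0 were called by limma. Beside 2342 of the 11056 genes tested, 5 of these 17 had an unadjusted p of at most 0.05. The median log2 change of the 17 was -0.33, with a range of -0.57 to 0.59. Without overlap after scaling, 2 were higher and 10 lower in L-MSCs, beside 24.8% and 27.2% of all genes, and on FPKM 3 were higher and 7 lower. That median stayed below 0 under all 14 alternatives, at -0.15 without control MSC replicate 1. With limma, 0 of 18 lysosomal membrane proteins, 0 of 17 sorting genes and 0 of 10 further autophagy receptors were called, with 3, 0 and 2 at an unadjusted p of at most 0.05 and medians of 0.11, 0.02 and 0.26.

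**Figure D4:**
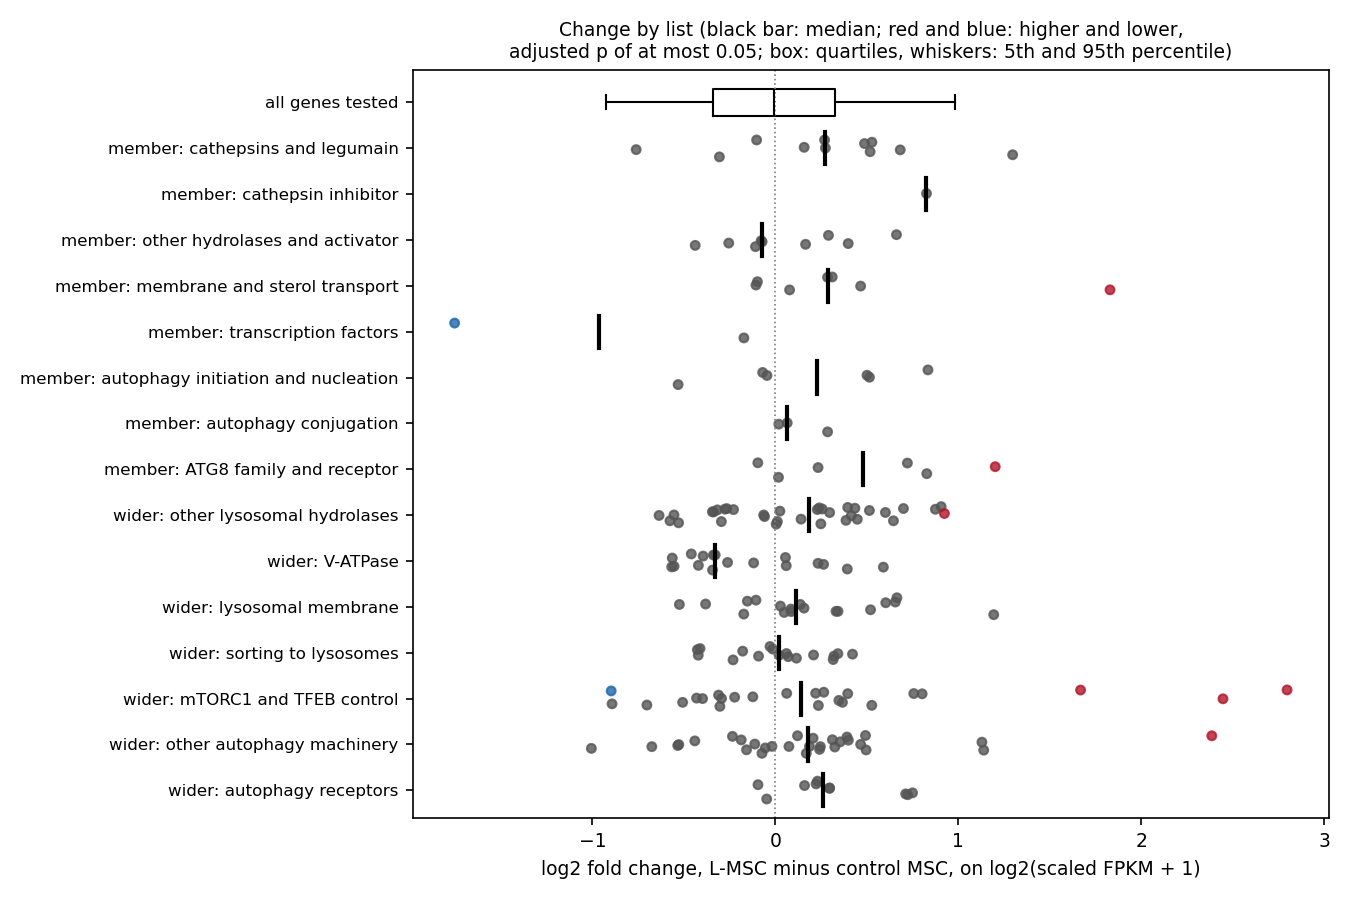
Log2 change of L-MSCs over control MSCs (horizontal axis) for every tested gene of the role lists and of the further pathway lists (vertical axis), with list medians as black bars and, on top, the quartiles and the 5th and 95th percentiles of all genes tested. Red and blue points are genes that rose and fell, and the V-ATPase median (-0.33) lies to the left of 0.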

How the data were processed

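MSCs of 2 L-MSC and 2 control MSC samples were amplified with a SMART-Seq v4 kit and sequenced by a BGI service. According to the submitters' processing notes and the study's methods, reads were filtered with SOAPnuke, aligned with HISAT2 2.0.4 and Bowtie2 2.2.5 to GRCm38.p6, and quantified with RSEM 1.2.8. The authors deposited FPKM with 2 decimals, summing to 574662 to 588926 in the L-MSC libraries and 559601 to 571471 in the control MSC libraries. The deposited log2 ratio of the groups is the authors' own comparison and was not used. The reads behind each value are not given with the FPKM, so that no counting interval was computed, and 2 samples per group limit the precision.

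FPKM were divided by median-of-ratios factors (1.03 and 1.06 for L-MSCs, 0.969 and 0.984 for control MSCs). The filter required 2 samples at an FPKM of 1 or more. The comparison was run on log2(FPKM + 1), a scale that understates changes of low genes, with limma 3.58.1 (lmFit, eBayes with trend) in R 4.3.3, and genes were called at an adjusted p (Benjamini-Hochberg, over all genes tested) of 0.05 or less. The fit was also run on data simulated from its own means and variances. That run cannot show how well the p-values hold for 2 pools per group. An exact two-sided permutation test of 2 against 2 cannot go below 0.333, so that p-values rest on limma's pooled spread between samples. The members and gene lists were chosen with earlier results of these data known. Named were the genes called, those without overlap at a log2 change of at least 0.5, the 3 most abundant of each role, the gene below the minimum, and up to 3 called genes of each further list in each direction; *Lamp1*, *Gabarapl2* and *Map1lc3a* were added afterwards. Positions and promoters are from RefSeq (GRCm38.p6), with 46 of 46 genes placed by gene ID. Alternatives were other scalings, pseudocounts, filters and variance models, a replicate block and leaving out each library. Protein sequences of the ATG8 family were not used here.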

Additional observations from a re-analysis of the deposited data

How the results depend on the processing

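With 14 alternatives, 518 log2 changes of the 37 genes named were recomputed, of which 451 kept their direction and their side of the threshold, 28 lost the call, 18 gained one and 21 changed sign, none of these past the threshold and none in the 9 genes called. *Gpnmb* was lost only without the filter, and *Gabarapl1* also without the variance trend, whereas *Tfeb* and *Lamtor2* each passed in 6 of 14 alternatives and *Scpep1* in 9. Without the filter limma called 0 of all genes in either direction (2355 with an unadjusted p of 0.05 or less, and 2342 with the filter), and so 0 higher and 0 lower in both the 46-gene list and the further lists. The 46-gene list, with 2 higher and 1 lower, gave 5 higher with quantile normalization, 1 higher without the variance trend, and 0 lower without scaling, with TPM, with a pseudocount of 0.1 and without the variance trend. With 1 library left out it gave 2 to 4 higher and 0 to 2 lower. The further lists, with 5 higher and 1 lower, gave 0 lower without scaling, with TPM, with quantile normalization and without the variance trend, and 4 to 8 higher and 0 to 3 lower with 1 library left out. Over all genes the counts were 148 higher and 128 lower without the variance trend, 314 and 218 without scaling, 251 and 196 with TPM, 281 and 185 without control MSC replicate 1, 226 and 240 without control MSC replicate 2, 216 and 163 without L-MSC replicate 1, and 447 and 531 without L-MSC replicate 2, against 285 and 357. Where leaving out a replicate left 1 sample in a group, it was assumed to vary like the other group.

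The samples share replicate numbers, but the labels do not say that a number marks a batch, and same-numbered deviations had a correlation of 0.10 over 11056 genes and of 0.29 over the 45 genes tested of the list. The replicate block gave 8 higher and 2 lower in the 46-gene list, adding *Ctsc*, *Ctsl*, *Gaa*, *Map1lc3b*, *Sqstm1*, *Wipi2* and, among those lower, *Ctsh*, 13 higher and 2 lower in the further lists, and 695 higher and 776 lower over all genes.

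Changes of sign were small in most genes. Quantile normalization gave log2 changes of -0.0033 for *Atg7*, 0.044 for *Wipi1*, 0.084 for *Npc2*, 0.11 for *Hexa* and 0.11 for *Gabarapl2*. No scaling gave 0.054 for *Wipi1*, 0.030 for *Hexa* and 0.0061 for *Gabarapl2*, and TPM gave 0.014 for *Wipi1*. With 1 library left out, the range was -0.064 to 0.097 for *Gabarap*, -0.12 to 0.25 for *Atg5*, -0.082 to 0.65 for *Atg12*, -0.17 to 0.21 for *Atg7*, -0.16 to 0.072 for *Wipi1*, -0.27 to 0.12 for *Hexa*, -0.52 to 0.17 for *Tfe3*, -0.25 to 0.72 for *Map1lc3a* and -0.75 to 1.68 for *Lamp1*. The cause of these differences was not tested.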
